A study of Mus musculus with 2 samples.

Results

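A panel of 33 immediate early and heat shock genes was followed through the cells of the adenoma-bearing mouse intestine, out of 31053 genes in the count matrices. It holds 26 immediate early genes and 7 heat shock genes, chosen by name, and both groups were kept apart throughout. All 33 were found in both matrices, and their UMIs were read in barcodes with at least 3000 UMIs of which at most 20% came from mitochondrial genes. The study made 1 single-cell RNA-seq library of lamina propria cells from ApcMin mice (ApcMin/+;Lef1+/+) and 1 from VApcMinL mice (ApcMin/+;Lef1fl/fl;Villin-Cre). Both groups carry the Apc Min allele on a C57BL/6 background, were 11 weeks old by the labels, and were sorted as EpCAM-CD45-Ter119- cells. Villin drives Cre in the intestinal epithelium, so that the sorted stroma of VApcMinL mice would keep its Lef1, a transcription factor of the Wnt pathway. Tissue of both groups was treated with EDTA for 20 minutes and with Liberase TL for 60 minutes at 37 °C, and no undigested sample was analysed here. How many mice went into either library is not stated in the sources used here. Each genotype has a single library, so that genotype, mice, dissociation and library cannot be told apart, and no p-value is given.

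Immediate early genes are transcribed within minutes of a growth signal, a stretch or an injury, without new protein synthesis, by factors already present in the cell. Many encode transcription factors of the AP-1, EGR, NR4A and KLF families, and others encode proteins that shut the response down again, such as phosphatases of MAP kinases and a factor that degrades AU-rich mRNAs. Heat shock genes encode chaperones of the HSP70, HSP90, HSP110 and HSP40 families and are induced through heat shock factor 1 when proteins unfold. Both programs are also known to be switched on in cells while a tissue is being digested at body temperature.

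The libraries held 93203061 UMIs (ApcMin) and 101609269 UMIs (VApcMinL), and the rule kept 6599 and 6569 barcodes with medians of 10849 and 9111 UMIs. Another 75 barcodes in ApcMin and 531 in VApcMinL reached the UMI minimum but lay over the mitochondrial limit, and 18 barcode sequences occurred in both libraries. Cells were clustered without the panel and without the related gene lists, and each of 26 clusters was named from 200 markers of 24 cell classes, a name meaning likeness by these markers. There were 3346 and 3679 fibroblast-like cells in 7 classes, and 17 classes in all had at least 20 cells in each library. B cell-like, plasma cell-like, myeloid-like, erythroid-like and epithelial-like cells were present although the sort was set against CD45, Ter119 and EpCAM. Cluster 0 took its fibroblast-like name from detected markers alone, with Has1 and Inmt at its head, and it is given by its number. The myeloid cluster was led by the mast cell proteases Mcpt1 and Mcpt2 together with the macrophage gene C1qa. In epithelial-like cells Lef1 stood at 7.57 and 1.95 CPM from 22 and 29 UMIs, and in fibroblast-like cells it had 3 and 15 UMIs. The 3′ tags need not lie in the deleted exons, so these counts do not check the knockout.

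Levels are given as CPM, the UMIs of a gene or of a summed group per 1000000 UMIs of all genes in that class and library, always in the order ApcMin, VApcMinL. A ratio is the VApcMinL level divided by the ApcMin level, with an exact conditional 95% interval that covers counting error only and not the spread between mice. As there is no test, a gene with at least 50 UMIs in a class was counted as higher or lower where the ratio passed 1.5-fold. RNA free in the suspension also enters droplets that hold a cell. Its level was read in empty droplets, the barcodes of UMI ranks 45000 to 90000, where the immediate early sum was 7909 and 11173 CPM and the heat shock sum 4546 and 5399.8 CPM. A level is read as that of the cells only where it was at least 2 times the level of the empty droplets in both libraries. This limit is a strict convention, and a level under it was not shown to be free RNA. In fibroblast-like cells plasma cell markers summed to 5440 and 6418 CPM, against 134694 and 157064 CPM in the empty droplets. Erythroid markers summed to 17329.6 and 3569 CPM there, against 70828 and 20686 CPM.

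The windows before the transcription start of 4 panel genes are shown because they hold a heat shock element or elements searched for among immediate early genes, or, for Fos, none of those searched. They are the 240 bases upstream of the start, from RefSeq on GRCm38.p6, 5′ to 3′ on the gene's own strand, with matches in capitals. In Hspa1a and Hspa1b the capitals mark the heat shock element GAANNTTC, 104 bases before the start, and in Btg2 a cyclic AMP response element, TGACGTCA, at 166 bases and an EGR element, GCGNGGGCG, at 131 bases before it. The windows lie at chr17:34972157-34972396 (minus strand), chr17:34959239-34959478 (minus strand), chr1:134079156-134079395 (minus strand) and chr12:85473650-85473889 (plus strand).
Hspa1a: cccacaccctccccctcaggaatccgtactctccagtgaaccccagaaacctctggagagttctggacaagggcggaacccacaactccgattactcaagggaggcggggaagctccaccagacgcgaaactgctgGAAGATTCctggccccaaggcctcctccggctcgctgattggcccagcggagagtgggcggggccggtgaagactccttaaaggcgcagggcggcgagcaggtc
Hspa1b: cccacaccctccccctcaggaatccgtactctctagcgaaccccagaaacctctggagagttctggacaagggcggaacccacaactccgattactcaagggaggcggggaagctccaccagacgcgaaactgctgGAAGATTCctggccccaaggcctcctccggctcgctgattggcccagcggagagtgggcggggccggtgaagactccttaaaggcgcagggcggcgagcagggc
Btg2: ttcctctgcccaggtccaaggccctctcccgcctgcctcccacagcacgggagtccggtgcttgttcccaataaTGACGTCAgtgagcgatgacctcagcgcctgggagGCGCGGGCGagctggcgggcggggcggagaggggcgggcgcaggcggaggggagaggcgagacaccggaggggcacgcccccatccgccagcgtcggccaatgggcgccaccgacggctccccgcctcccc
Fos: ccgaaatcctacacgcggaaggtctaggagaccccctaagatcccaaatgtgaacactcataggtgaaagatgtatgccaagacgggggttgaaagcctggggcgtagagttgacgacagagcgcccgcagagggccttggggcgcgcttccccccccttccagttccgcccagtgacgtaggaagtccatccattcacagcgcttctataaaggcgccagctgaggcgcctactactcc

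The windows of Hspa1a and Hspa1b, neighbouring genes for inducible HSP70, were identical at 237 of 240 bases. The genes themselves are near-identical copies, so reads could be split between them and their separate levels are uncertain. RefSeq windows running from 250 bases before to 50 after the start were found for 21 of the 26 immediate early and 5 of the 7 heat shock genes, and they were searched on both strands. A gene with several windows counted as a match where any of them matched. GAANNTTC was present in 4 of the 5 heat shock genes (Hspa1a, Hspa1b, Hsph1 and Dnaja1) and in 2 of the 21 immediate early genes (Fosl2 and Jun), against 9.04% of 27025 genes. The form TTCNNGAA, which can share letters with GAANNTTC, was in Hsph1 and in Egr2, against 9.60% of genes. GCGNGGGCG was in 10 of the 21 immediate early genes, namely Fosb, Fosl2, Btg2, Zfp36, Nr4a1, Nr4a2, Klf2, Klf4, Dusp2 and Socs3, and in Dnaja1 among the heat shock genes, against 6.27% of genes. TGACGTCA was in Btg2 and Dusp1 (2.03% of genes), a CArG box in Egr2 and Zfp36 (1.81%), and the AP-1 element TGANTCA in no panel gene (8.97%). A match describes these letters only, and a window without one says nothing about the factor.

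In fibroblast-like cells the immediate early sum stood at over 2 times the free RNA of the empty droplets and the heat shock sum did not. The immediate early sum was 23424 and 24927 CPM (ratio 1.06, 1.06 to 1.07), which is 2.96 and 2.23 times the level of that library's empty droplets. The heat shock sum was 7335 and 9130.4 CPM (ratio 1.24, 1.24 to 1.25), or 1.61 and 1.69 times the level of the empty droplets. The same sums in the empty droplets had ratios of 1.41 and 1.19. Read from barcodes of 10 to 100 UMIs instead, the free ratios were 1.58 and 0.898, so the free heat shock level was higher in VApcMinL under one reading of the empty droplets and lower under the other. The ratios of the cells also depend on the mix of their classes, which differed between the libraries (489 and 1128 Adamdec1 fibroblasts). With each fibroblast-like cluster weighted equally they were 1.21 for the immediate early and 1.23 for the heat shock sum. Of the 26 immediate early genes 1 was past 1.5-fold, higher in VApcMinL, and of the 7 heat shock genes none was, while 11.7% of the 14177 genes tested were as far higher and 4.12% as far lower. The median log2 ratio was 0.09 for the immediate early and 0.24 for the heat shock genes, beside 0.03 for all genes tested. Erythroid markers summed to 17329.6 and 3569 CPM and epithelial markers to 24.3 and 252 CPM in these cells. The part of either in the levels was not tested.

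Among the AP-1 genes, Fos (chr12:85473890-85477273 on GRCm38, plus strand) stood at 3503 and 3854 CPM (ratio 1.10, 1.09 to 1.11) and its partner Jun at 2427 and 2491 CPM (ratio 1.03, 1.02 to 1.03). Junb, an AP-1 subunit that often restrains Jun, was at 2437 and 2358 CPM (ratio 0.968, 0.959 to 0.976). Over the pooled fibroblast-like cells these 3 genes were thus close to level between the libraries. Single classes differed, with Junb higher past 1.5-fold in Adamdec1 fibroblasts and Junb and Fos in subepithelial stromal-like cells. None of the 3 was as far lower in a fibroblast-like class. Jund, the AP-1 subunit most steadily present in resting cells, was at 1237 and 1276 CPM (ratio 1.03, 1.02 to 1.04), and Fosl2, a late partner, at 141 and 147 CPM (ratio 1.04, 1.001 to 1.07). Fosb stood apart from them with 1422 and 1799.7 CPM (ratio 1.27, 1.25 to 1.28). Fosl1, with the fewest UMIs of the AP-1 genes here, had 11.8 and 14.3 CPM (ratio 1.21, 1.07 to 1.36). Atf3, a stress-induced relative of AP-1 that mostly represses, was at 495 and 509 CPM (ratio 1.03, 1.01 to 1.05). In this family the 2 genes with the largest ratios were Fosb and Fosl1, and neither passed 1.5-fold.

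Egr1, a zinc finger factor induced by serum response factor, had the most UMIs of the panel in these cells, at 4814 and 5104 CPM (ratio 1.06, 1.05 to 1.07). Its relatives had far fewer, with Egr2 at 45.3 and 48.1 CPM (ratio 1.06, 0.999 to 1.13) and Egr3 at 55.8 and 77.4 CPM (ratio 1.39, 1.32 to 1.46). Egr3 was thus well above the near-level pooled ratios of Egr1 and Egr2. The orphan nuclear receptors were all slightly higher in VApcMinL, Nr4a1 with 500.4 and 542 CPM (ratio 1.08, 1.06 to 1.10), Nr4a2 with 90.8 and 98.6 CPM (ratio 1.09, 1.04 to 1.13) and Nr4a3 with 82.0 and 95.1 CPM (ratio 1.16, 1.11 to 1.21). Of the Krüppel-like factors, Klf4 was at 1084 and 1008 CPM (ratio 0.930, 0.918 to 0.942) and Klf6 at 447 and 459 CPM (ratio 1.03, 1.01 to 1.05). Klf2, best known as the flow-responsive factor of endothelium, was at 452 and 359 CPM (ratio 0.795, 0.778 to 0.812), the lowest ratio of the panel in this group of cells.

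Of the genes that end or limit the response, Dusp1, a phosphatase of MAP kinases, was at 855 and 932 CPM (ratio 1.09, 1.08 to 1.11), and Zfp36, which encodes the mRNA-degrading protein tristetraprolin, at 649 and 635 CPM (ratio 0.977, 0.961 to 0.994). Socs3, the inhibitor of cytokine receptor signalling, was at 381 and 372 CPM (ratio 0.976, 0.955 to 0.997), and Nfkbiz, a nuclear partner of NF-κB, at 363 and 342 CPM (ratio 0.942, 0.921 to 0.964). These 4 were near level in the pooled cells, while in Adamdec1 fibroblasts all 4 were higher past 1.5-fold. None of the 4 was as far lower in a fibroblast-like class. Btg2, an antiproliferative gene, was higher with 814 and 1078 CPM (ratio 1.33, 1.31 to 1.34). The immediate early response genes differed among themselves, with Ier2 at 628 and 662 CPM (ratio 1.05, 1.04 to 1.07), Ier5 at 237 and 269 CPM (ratio 1.14, 1.11 to 1.17) and Ier3 at 247 and 393 CPM (ratio 1.59, 1.55 to 1.63). Ier3, which is linked to cell survival, was the member past 1.5-fold. Dusp2, a phosphatase known from lymphocytes, was at 4.16 and 4.83 CPM (ratio 1.16, 0.948 to 1.42), below the 45.1 and 22.9 CPM of the empty droplets, and is not read as a level of fibroblasts.

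All 7 heat shock genes had higher levels in VApcMinL fibroblast-like cells, by between 1.09 and 1.40 times, and none passed 1.5-fold. The median log2 ratio of all genes tested was 0.03, and the heat shock sum of the empty droplets had a ratio of 1.19. Of the genes for inducible HSP70, Hspa1a (chr17:34969190-34972156, minus strand) was at 1379 and 1926 CPM (ratio 1.40, 1.38 to 1.41) and Hspa1b (chr17:34956436-34959238, minus strand) at 1635 and 2063 CPM (ratio 1.26, 1.25 to 1.27). Hsp90aa1, the inducible HSP90, was at 1588 and 2039 CPM (ratio 1.28, 1.27 to 1.30). The HSP40 co-chaperones followed, Dnaja1 at 636 and 751 CPM (ratio 1.18, 1.16 to 1.20) and Dnajb1 at 441 and 511 CPM (ratio 1.16, 1.14 to 1.18). Hspa8, the constitutive HSP70, was at 1492 and 1660 CPM (ratio 1.11, 1.10 to 1.12), and Hsph1, the HSP110 that recharges HSP70, at 165 and 180.1 CPM (ratio 1.09, 1.06 to 1.13). Hspa8 and Hsph1 therefore had the smallest ratios of the group and Hspa1a and Hsp90aa1 the largest.

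Against the empty droplets the panel divided. At least 2 times the empty droplets in both libraries were 10 of the 26 immediate early genes (Fos, Fosb, Fosl1, Jun, Junb, Egr1, Btg2, Klf4, Socs3 and Nfkbiz) and none of the 7 heat shock genes, while 26.9% of 14177 genes were. Egr1 stood at 4.30 and 2.88 times, Klf4 at 4.13 and 3.002 times and Fos at 3.92 and 2.76 times the level of the empty droplets. Hspa1a was at 1.51 and 1.74 times and Dnajb1 at 2.50 and 1.92 times that level. Ier3, the gene with the largest ratio, was at 1.79 and 1.90 times the free level, short of the limit in both libraries. In the empty droplets themselves Fos was at 894 and 1396 CPM, Egr1 at 1119.9 and 1775 CPM, Atf3 at 166 and 352 CPM and Ier2 at 176 and 360 CPM, so those genes were more abundant in the free RNA of VApcMinL. Read from barcodes of 10 to 100 UMIs instead, the free heat shock sum was 5199.5 and 4669 CPM, the reverse order, and the free immediate early sum 8093 and 12760.1 CPM.

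**Figure D1:**
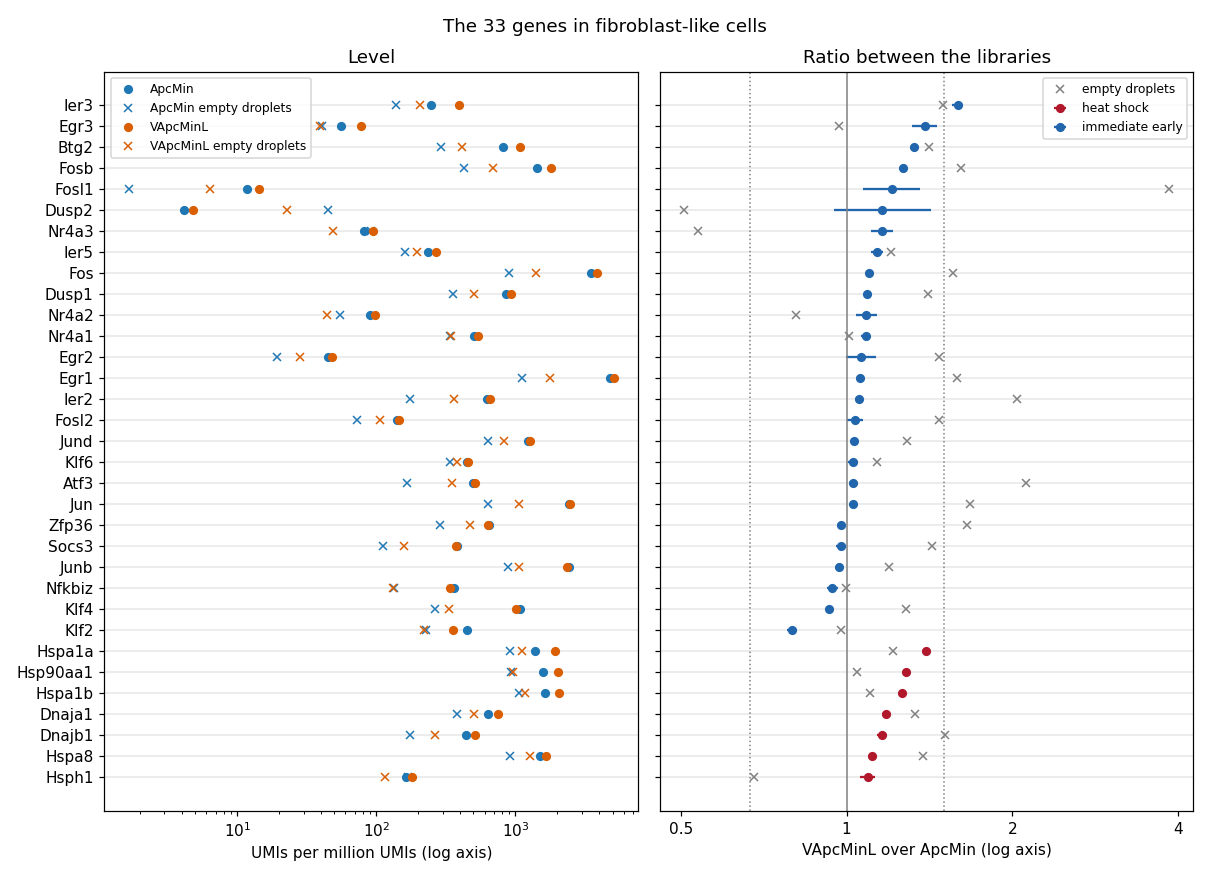
Left, levels (CPM, log axis) of the 33 genes in fibroblast-like cells as dots and in the empty droplets as crosses, blue for ApcMin and orange for VApcMinL, 1 library each; right, the ratio of VApcMinL to ApcMin (log axis) with 95% counting intervals, grey crosses for the empty droplets and dotted lines at 1.5-fold. Egr1 and Fos lead at 4814 and 5104 CPM and 3503 and 3854 CPM, Ier3 is the gene past 1.5-fold, and Dusp2 lies below the empty droplets.

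As shares of captured molecules, which are not divided by gene length, Egr1 made up 20.6% and 20.5% of the immediate early UMIs of fibroblast-like cells and Fos 15.0% and 15.5%. Hspa1b held 22.3% and 22.6% of the heat shock UMIs and Hsp90aa1 21.6% and 22.3%. The third gene differed between the libraries, Junb and Jun for the immediate early and Hspa8 and Hspa1a for the heat shock UMIs. After each cell was thinned to 3000 UMIs, 84.2% and 80.7% of fibroblast-like cells had a Fos UMI (unthinned 92.9% and 88.9%, at median depths of 13319 and 10660.0 UMIs). In erythroid-like cells, which should lack it, the share was 5.43% and 12.4% (unthinned 12.9% and 24.5%, at 9402 and 7367 UMIs). For Hspa1a the thinned shares were 62.1% and 68.5% in fibroblast-like and 4.33% and 11.3% in erythroid-like cells. Both genes were therefore found in most fibroblast-like cells and in a larger share of them than of erythroid-like cells. The erythroid-like sums lay far below the empty droplets, so these shares do not measure the free RNA. Hspa1a did not reach 2 times the level of the empty droplets in fibroblast-like cells, and its share is not read as that of the cells.

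Across cell classes the immediate early level followed much the same order in both libraries, and the glia headed it. Enteric glial-like cells had the highest sum, 38396 and 33781 CPM, followed in ApcMin by smooth muscle-like cells at 33414 CPM (VApcMinL 24191). Next came the Lpl Penk fibroblasts with 29307 and 31592 CPM and cluster 0 with 27315 and 29507 CPM. Blood endothelial-like cells (24268 and 26624 CPM), Grem1 fibroblasts (23748 and 29376 CPM) and Pi16 fibroblasts (21040 and 22382 CPM) formed the next tier, all at about 2 times the free level or more. Myeloid-like cells (17687 and 14824 CPM) and T cell-like or innate lymphoid-like cells (15585 and 15837 CPM) lay below them.

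The lower end held stromal as well as blood cells. Subepithelial stromal-like cells had 12849 and 22115 CPM, Scg2 stromal-like cells 12195 and 13837 CPM and Adamdec1 fibroblasts 11990.2 and 16268 CPM. B cell-like cells (8113 and 6925 CPM), epithelial-like cells (7308 and 7728 CPM) and lymphatic endothelial-like cells (4550.2 and 11130 CPM) were near or below the free level of 7909 and 11173 CPM. Plasma cell-like cells were at 1985 and 2057 CPM and erythroid-like cells at 175 and 425 CPM. The fibroblast classes thus spanned from 11990.2 to 29307 CPM in ApcMin and from 13837 to 31592 CPM in VApcMinL. Either range was wider than the difference of any of these classes between the libraries, of which the subepithelial one (ratio 1.72) was the largest. Single classes could lie closer, as subepithelial, Scg2 and Adamdec1 cells did in ApcMin. Scg2 stromal-like cells and Adamdec1 fibroblasts in ApcMin, and in VApcMinL cluster 0 with Grem1 fibroblasts and Pi16 fibroblasts with subepithelial cells, were neighbours whose intervals overlapped. Over the 17 classes, which share the libraries and their free RNA, Spearman's rho between the libraries was 0.93 as a description.

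The heat shock order was different, with T cell-like or innate lymphoid-like and myeloid-like cells near its top. Enteric glial-like cells again led with 20479 and 24423 CPM, of which Hspa1a and Hspa1b supplied 33.5% and 34.3% and 29.6% and 33.3%. T cell-like or innate lymphoid-like cells followed in both libraries with 19449 and 15175 CPM. Next in ApcMin came smooth muscle-like cells with 19175 and 10021 CPM and myeloid-like cells with 17497 and 12629 CPM, while in VApcMinL Grem1 fibroblasts stood above myeloid-like cells, and blood endothelial-like cells above smooth muscle. Grem1 fibroblasts (11769.7 and 13282 CPM) and blood endothelial-like cells (8500.2 and 10878 CPM) came before cluster 0 (7552 and 8806 CPM), Adamdec1 (6271 and 7609 CPM), Lpl Penk (5311 and 7835 CPM) and Pi16 fibroblasts (4828 and 5477 CPM). B cell-like cells had 9606 and 8617 CPM, more than their immediate early sum, and Scg2 stromal-like cells 8037 and 8287 CPM. Lpl Penk fibroblasts were thus near the top of the immediate early order and in the lower part of the heat shock order. In ApcMin the intervals of T cell-like or innate lymphoid-like cells and smooth muscle overlapped, as did those of subepithelial, Lpl Penk and epithelial-like cells (the last at 5251 and 3686 CPM). Plasma cell-like (1482 and 1746 CPM) and erythroid-like cells (101 and 236 CPM) were again last. Spearman's rho between the libraries was likewise 0.93 over 17 classes.

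**Figure D2:**
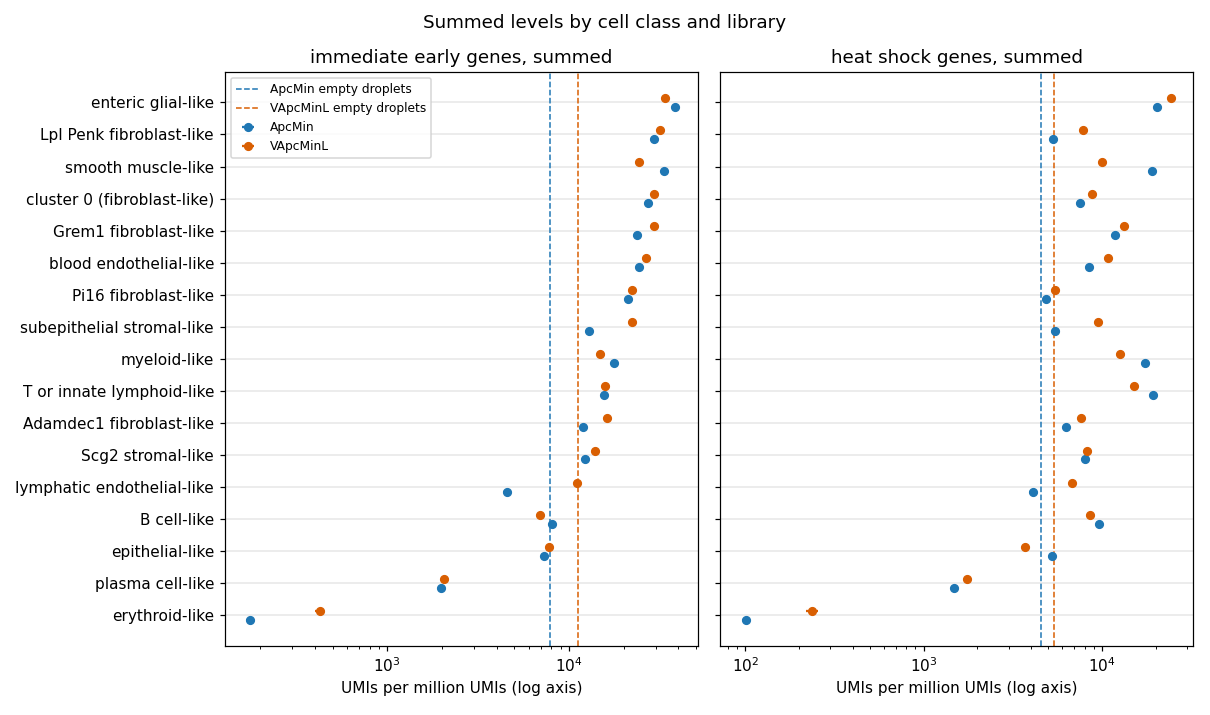
Summed immediate early (left) and heat shock (right) levels (CPM, log axis) by cell class for ApcMin and VApcMinL, 1 library each, with 95% counting intervals and dashed lines at the level of each library's empty droplets. Enteric glial-like cells are highest in both sums and plasma cell-like and erythroid-like cells lowest, below the empty droplets.

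Between the libraries the immediate early sum was higher in VApcMinL in 13 of 17 classes and the heat shock sum in 12 of 17. Counting intervals lay above 1 in 12 classes for each sum and below 1 in 4 classes for the immediate early and 5 for the heat shock genes. Ratios ran from 0.724 in smooth muscle-like to 2.45 in lymphatic endothelial-like cells for the immediate early sum and from 0.523 in smooth muscle to 2.34 in erythroid-like cells for the heat shock sum. The erythroid ratios were 1.20 and 1.15 with hemoglobin genes, among others, out of the total. Both sums were lower in VApcMinL in smooth muscle-like, myeloid-like and B cell-like cells. Only the immediate early sum was lower in glia, and only the heat shock sum in T cell-like or innate lymphoid-like cells and in epithelial-like cells.

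**Figure D3:**
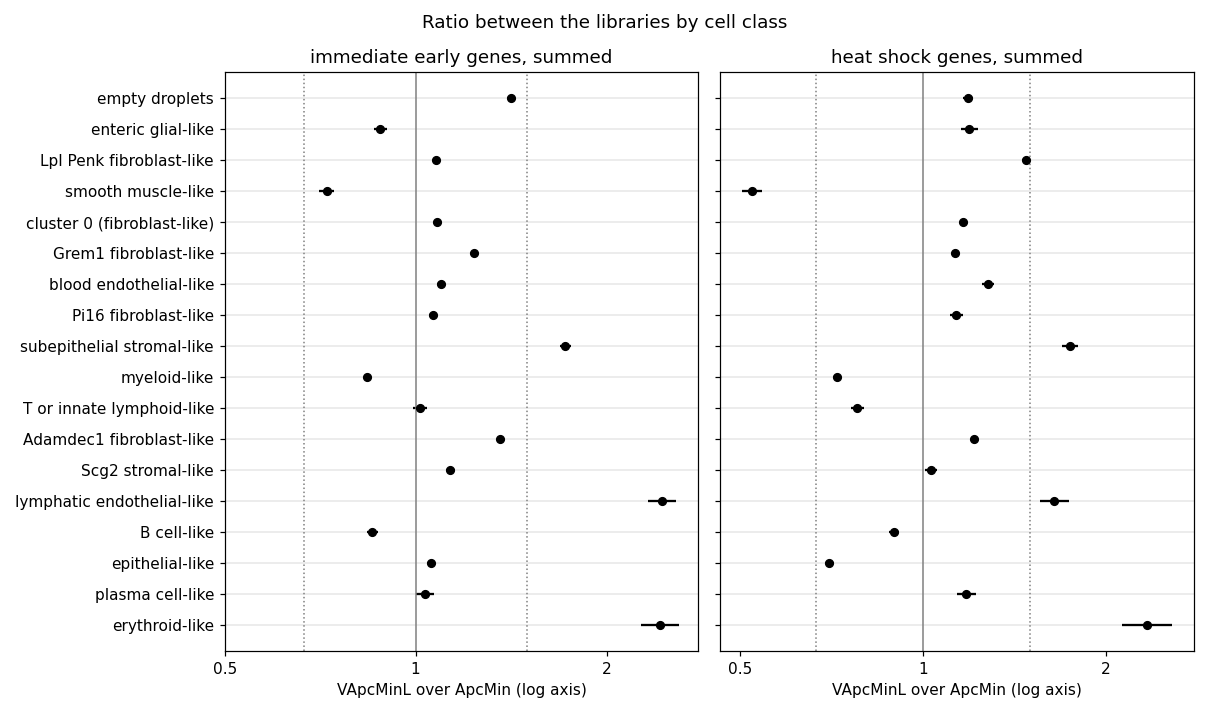
Ratio of the summed level in VApcMinL to that in ApcMin (log scale) for each class and for the empty droplets, immediate early and heat shock genes apart, with 95% intervals that cover counting error only. Lymphatic endothelial, erythroid-like and subepithelial stromal-like cells lie to the right of 1 in both sums and smooth muscle to the left.

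Subepithelial stromal-like cells, which line the crypts and villi and make BMP and WNT ligands, had the widest difference of the fibroblast-like classes, in 63 and 210 cells. Their immediate early sum was 12849 and 22115 CPM (ratio 1.72, 1.69 to 1.76) and their heat shock sum 5448 and 9511 CPM (ratio 1.75, 1.69 to 1.80). Of 25 immediate early genes tested 17 were higher in VApcMinL past 1.5-fold and none lower, and of the 7 heat shock genes 6 were higher, all but Dnaja1, while 11.9% of the 7626 genes tested were as far higher and 10.7% as far lower. Egr3 had the largest ratio at 41.6 and 175 CPM (ratio 4.20, 3.005 to 6.05), Atf3 was at 154 and 483 CPM (ratio 3.14, 2.63 to 3.77) and Fosb at 820.5 and 2286 CPM (ratio 2.79, 2.58 to 3.01). Klf4 was at 502 and 1258 CPM (ratio 2.50, 2.27 to 2.77) and Hspa1a at 1129.6 and 2456 CPM (ratio 2.17, 2.03 to 2.33). Klf6 was the lowest at 328 and 264 CPM (ratio 0.805, 0.702 to 0.926). A level of at least 2 times the free RNA in both libraries was reached by 3 immediate early genes and no heat shock gene, and by 27.1% of all genes tested.

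The class joins 2 clusters, and they were not alike. In cluster 18, led by Wif1 (32 and 133 cells), the immediate early sum was 18404 and 27282 CPM (ratio 1.48, 1.45 to 1.52) and the heat shock sum 6972 and 11652 CPM (ratio 1.67, 1.61 to 1.73). In cluster 20, led by Bmp5 (31 and 77 cells), they were 6257 and 9779.8 CPM (ratio 1.56, 1.49 to 1.64) and 3639.8 and 4397 CPM (ratio 1.21, 1.14 to 1.28). Egr3 was at 58.0 and 243 CPM in cluster 18 and at 22.1 and 11.5 CPM in cluster 20. In cluster 20 it had fewer than the 50 UMIs required for a fold, so its direction there is not read. Fosl2 was lower in VApcMinL in cluster 20, at 120.4 and 56.3 CPM. Fos in cluster 20 was at 612 and 1323 CPM (ratio 2.16, 1.88 to 2.49). The sums of cluster 20 lay below the free level in both libraries, at 0.791 and 0.875 times and 0.801 and 0.814 times that of the empty droplets, and are not read as levels of these cells. The class ratios, 1.72 for the immediate early and 1.75 for the heat shock sum, thus lay above those of both clusters. They hold the unequal mix of the clusters as well, and the size of its part was not tested. At the coarser resolution of 0.2, where the class holds other clusters, the Egr3 ratio was 0.523.

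Adamdec1 fibroblasts, fibroblasts of the lamina propria around the crypts, were more numerous in VApcMinL (489 and 1128 cells) and also had more immediate early UMIs there, 11990.2 and 16268 CPM (ratio 1.36, 1.35 to 1.37). The heat shock sum was 6271 and 7609 CPM (ratio 1.21, 1.20 to 1.23). Past 1.5-fold 15 of 25 immediate early genes were higher and none lower, and 1 of 7 heat shock genes, Dnajb1, was higher, while 7.75% of the 11438 genes tested were as far higher and 4.55% as far lower. The median log2 ratio was 0.63 for the immediate early and 0.23 for the heat shock genes, beside 0.01 for all genes. Junb was at 886 and 1376 CPM (ratio 1.55, 1.51 to 1.60), Fosb at 519.6 and 879 CPM (ratio 1.69, 1.63 to 1.76) and Ier3 at 158 and 338 CPM (ratio 2.15, 2.0 to 2.31). Nr4a2, an orphan receptor induced by cyclic AMP, was at 25.96 and 50.4 CPM (ratio 1.94, 1.63 to 2.33), and Dnajb1 at 186 and 324 CPM (ratio 1.74, 1.63 to 1.86). Fosl1 had the largest ratio, from 1.28 and 4.38 CPM, and Klf2 the smallest, 433 and 296 CPM (ratio 0.685, 0.651 to 0.722). The sum was higher in both clusters of the class, with ratios of 1.43 in cluster 3 and 1.25 in cluster 10. In this class Egr1 was the 1 panel gene at least 2 times the free level in both libraries, beside 31.9% of all genes tested, and erythroid markers summed to 25247 and 2096 CPM.

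Lpl Penk fibroblasts differed in the heat shock genes rather than in the immediate early genes. The heat shock sum was 5311 and 7835 CPM (ratio 1.48, 1.46 to 1.49) in 869 and 704 cells, and the immediate early sum 29307 and 31592 CPM (ratio 1.08, 1.07 to 1.08). Higher past 1.5-fold were 3 of 7 heat shock genes and 1 of 26 immediate early genes, with none lower, while 5.05% of the 10951 genes tested were as far higher and 4.59% as far lower. Hspa1a was at 683 and 1259 CPM (ratio 1.84, 1.78 to 1.90), Hspa1b at 910 and 1491 CPM (ratio 1.64, 1.59 to 1.68) and Hsp90aa1 at 1255 and 2031 CPM (ratio 1.62, 1.58 to 1.66). Hspa1a was at 0.748 and 1.13 times the free level, so that both of its levels were near that of the empty droplets. The immediate early gene was Fosl1, at 4.18 and 9.10 CPM, and Klf2 had the lowest ratio, 0.8005. Of the 26 immediate early genes 15 were at least 2 times the free level in both libraries and of the heat shock genes none, beside 27.8% of all genes tested.

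Grem1 fibroblasts, which lie at the crypt base and in the submucosa and secrete the BMP antagonist Gremlin, were higher in both sums in 563 and 695 cells. The immediate early sum was 23748 and 29376 CPM (ratio 1.24, 1.23 to 1.24) and the heat shock sum 11769.7 and 13282 CPM (ratio 1.13, 1.12 to 1.14). Fosl1 (ratio 1.89, from 8.87 and 16.7 CPM) and Ier3, with 337 and 587 CPM (ratio 1.74, 1.66 to 1.83), were the 2 of 26 immediate early genes past 1.5-fold, no heat shock gene was, and 4.38% of the 10918 genes tested were as far higher and 4.85% as far lower. Fos was at 3875 and 5136 CPM (ratio 1.33, 1.31 to 1.34). This was the fibroblast class with the most heat shock genes well over the free RNA: Hspa1a, Hspa1b, Hsp90aa1 and Dnajb1 were at least 2 times the free level in both libraries, beside 22.7% of all genes tested. Hspa1a stood at 2914 and 3098 CPM, or 3.19 and 2.79 times the level of the empty droplets. Erythroid markers summed to 23074 and 923 CPM and epithelial markers to 25.2 and 228 CPM in this class, and their part was not tested.

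The other fibroblast-like classes were closer to level. In cluster 0 (944 and 685 cells) the immediate early sum was 27315 and 29507 CPM (ratio 1.08, 1.07 to 1.09) and the heat shock sum 7552 and 8806 CPM (ratio 1.17, 1.16 to 1.18), with Dusp2 past 1.5-fold higher at 3.12 and 4.70 CPM, Nr4a2 lower at 126 and 82.2 CPM (ratio 0.653, 0.599 to 0.711) and no heat shock gene past it, while 6.70% of the 11415 genes tested were as far higher and 5.52% as far lower. In this cluster 14 immediate early genes and 1 heat shock gene were at least 2 times the free level in both libraries, beside 21.9% of all genes tested. At resolution 0.2 the Nr4a2 ratio was 1.07. Of the Cfd UMIs in this cluster 99.9% came from 10 cells. In Pi16 fibroblasts (247 and 117 cells), adventitial cells of vessel walls, the sums were 21040 and 22382 CPM (ratio 1.06, 1.05 to 1.08) and 4828 and 5477 CPM (ratio 1.13, 1.11 to 1.16). There Egr3, at 36.9 and 68.4 CPM (ratio 1.85, 1.45 to 2.36), was the 1 of 25 immediate early genes past 1.5-fold, no heat shock gene was, and 4.71% of the 8819 genes tested were as far higher and 5.76% as far lower. Klf4 was the Pi16 fibroblast gene furthest over the free RNA, at 1595 and 1455 CPM or 6.08 and 4.33 times the empty droplets, and 10 immediate early and no heat shock gene were at least 2 times that level, beside 27.0% of all genes tested. In Scg2 stromal-like cells (171 and 140 cells) the sums were 12195 and 13837 CPM (ratio 1.13, 1.12 to 1.15) and 8037 and 8287 CPM (ratio 1.03, 1.01 to 1.05), the latter turning to 0.899 after thinning. Higher were 4 of 24 immediate early genes (Fosb, Nr4a2, Nr4a3 and Socs3), lower was Egr2 with 20.8 and 9.72 CPM (ratio 0.468, 0.249 to 0.836), and no heat shock gene passed, while 9.23% of the 8322 genes tested were as far higher and 5.43% as far lower. Nr4a2 had the largest ratio there, from 47.4 and 99.0 CPM, and no gene of the panel was at 2 times the free level in Scg2 cells, beside 34.4% of all genes tested.

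Endothelium split by vessel type. Lymphatic endothelial-like cells, few in ApcMin (38 and 174 cells), had an immediate early sum of 4550.2 and 11130 CPM (ratio 2.45, 2.33 to 2.57) and a heat shock sum of 4128 and 6791 CPM (ratio 1.65, 1.56 to 1.74). Higher past 1.5-fold were 18 of 23 immediate early and 5 of 7 heat shock genes and lower was Dusp2 (129 and 71.8 CPM), while 10.8% of the 5320 genes tested were as far higher and 8.52% as far lower. The largest ratio was that of Nr4a1, with 16.1 and 197 CPM (ratio 12.2, 5.54 to 33.6), followed by Fosb with 61.9 and 476 CPM (ratio 7.69, 5.08 to 12.2) and Atf3 with 40.3 and 246 CPM (ratio 6.09, 3.64 to 11.0). Zfp36 was at 48.4 and 279 CPM (ratio 5.75, 3.59 to 9.81), Jun at 212 and 1079 CPM (ratio 5.08, 4.05 to 6.45) and Fos at 430.3 and 1254 CPM (ratio 2.91, 2.48 to 3.45). Among the heat shock genes Dnajb1 had 67.2 and 283 CPM (ratio 4.21, 2.81 to 6.58) and Hsp90aa1 619 and 1277 CPM (ratio 2.06, 1.80 to 2.38). The immediate early sum was 0.575 and 0.996 times and the heat shock sum 0.908 and 1.26 times the free level, and Dusp2 was the 1 panel gene at 2 times that level, beside 40.2% of all genes tested. Fibroblast markers summed to 5946 and 3143 CPM, erythroid markers to 33465 and 472 CPM and plasma cell markers to 2092 and 8555 CPM in these cells, and their part in the ratios was not tested.

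Blood endothelial-like cells (124 and 486 cells) were high in both libraries, with sums of 24268 and 26624 CPM (ratio 1.10, 1.08 to 1.11) and 8500.2 and 10878 CPM (ratio 1.28, 1.25 to 1.31). As a mean over cells in place of a sum, the immediate early ratio was 0.964. Past 1.5-fold were 4 of 26 immediate early genes, all higher, and no heat shock gene, while 8.88% of the 8005 genes tested were as far higher and 8.59% as far lower. Socs3 was at 258 and 484 CPM (ratio 1.88, 1.65 to 2.15), and Fosl1, from 4.81 and 18.3 CPM, had the largest ratio (3.81). Fosl2 and Ier3 were the other two. Ier3 was the gene furthest over the free RNA in this class, at 954 and 1485 CPM or 6.93 and 7.20 times the empty droplets. Klf2, induced by flow, was at 1085 and 987 CPM, and Egr3 at 226 and 259.5 CPM. At least 2 times the free level in both libraries were 15 of 26 immediate early and 2 of 7 heat shock genes, beside 30.1% of all genes tested. Dusp2 was lower in both endothelial classes, here with 60.5 and 42.1 CPM (ratio 0.695, 0.512 to 0.951). Fibroblast markers summed to 7408 and 2276 CPM, pericyte markers to 259 and 1004 CPM and erythroid markers to 60298 and 26499 CPM in this class, and their part was not tested.

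Smooth muscle-like cells were the class in which the panel was furthest below ApcMin, in 41 and 73 cells. The immediate early sum was 33414 and 24191 CPM (ratio 0.724, 0.705 to 0.744) and the heat shock sum 19175 and 10021 CPM (ratio 0.523, 0.503 to 0.543). Lower past 1.5-fold were 7 of 23 immediate early genes (Junb, Atf3, Ier2, Nr4a3, Klf4, Klf6 and Nfkbiz) and 6 of 7 heat shock genes, all but Hsp90aa1, and 1 immediate early gene, Egr3, was higher, while 17.1% of the 3067 genes tested were as far higher and 13.0% as far lower. Hspa1b was at 5905 and 2465 CPM (ratio 0.417, 0.388 to 0.449), Hspa1a at 5368 and 2724 CPM (ratio 0.507, 0.472 to 0.546) and Dnajb1 at 710.2 and 303 CPM (ratio 0.427, 0.346 to 0.527). Hsph1 had the lowest heat shock ratio with 663 and 270.4 CPM (ratio 0.408, 0.327 to 0.509). Fos was at 6089.6 and 4140.1 CPM (ratio 0.680, 0.638 to 0.725), and Egr3 at 35.3 and 70.9 CPM (ratio 2.01, 0.965 to 4.68), an interval that reaches below 1. Levels of at least 2 times the free RNA in both libraries were held by 12 immediate early and 3 heat shock genes, beside 41.7% of all genes tested. Pericyte markers summed to 9750.4 and 6465 CPM, smooth muscle markers to 17209 and 21160.3 CPM and fibroblast markers to 3029 and 6949.6 CPM in this cluster, so its makeup moved with the libraries and its part was not tested.

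Enteric glial-like cells, akin by markers to the support cells of the gut's nerve plexus, had the highest levels of the panel in both libraries and differed less between them than smooth muscle, in 30 and 173 cells. The immediate early sum was 38396 and 33781 CPM (ratio 0.880, 0.859 to 0.901) and the heat shock sum 20479 and 24423 CPM (ratio 1.19, 1.16 to 1.23). Higher past 1.5-fold were Fosl2 and Dusp1, lower were Ier5, Zfp36 and Klf2 of 24 immediate early genes, and no heat shock gene passed, while 12.5% of the 4278 genes tested were as far higher and 11.6% as far lower. Hspa1a reached 6855 and 8376 CPM, which is 7.50 and 7.55 times the free level, and Hspa1b 6063 and 8138 CPM. Egr1 was at 8211 and 7173 CPM and Fos at 7766 and 6582 CPM. Dusp1 was at 383 and 609 CPM (ratio 1.59, 1.27 to 2.02) and Zfp36 at 1063 and 653 CPM (ratio 0.614, 0.530 to 0.714). In glia 16 of 26 immediate early and 6 of 7 heat shock genes were at least 2 times the free level in both libraries, beside 37.1% of all genes tested. Fibroblast markers summed to 12166 and 3344 CPM and erythroid markers to 1837 and 28752 CPM, and their part was not tested.

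Immune cells carried other members of the panel. In myeloid-like cells (288 and 229 cells) both sums were lower in VApcMinL, at 17687 and 14824 CPM (ratio 0.838, 0.828 to 0.849) and 17497 and 12629 CPM (ratio 0.722, 0.712 to 0.731). Lower past 1.5-fold were Atf3, Ier5 and Zfp36 of 25 immediate early genes and Hsph1 of 7 heat shock genes, with none higher, while 5.06% of the 8760 genes tested were as far higher and 10.8% as far lower. Hsph1 had the lowest ratio with 689 and 393 CPM (ratio 0.570, 0.529 to 0.614), and Egr1 the highest with 1184 and 1438 CPM (ratio 1.21, 1.16 to 1.27). Hspa1b was at 4825 and 3352 CPM (ratio 0.695, 0.677 to 0.713). Reaching at least 2 times the free level in both libraries were 6 immediate early and 4 heat shock genes, beside 19.4% of all genes tested. Plasma cell markers summed to 14296 and 86924 CPM in this class, and their part was not tested.

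In T cell-like or innate lymphoid-like cells (118 and 86 cells) the heat shock sum was 19449 and 15175 CPM (ratio 0.780, 0.762 to 0.799) and the immediate early sum 15585 and 15837 CPM (ratio 1.02, 0.992 to 1.04). Higher past 1.5-fold were Fos, Egr1, Ier3 and Klf4 and lower were Nr4a2, Klf2 and Dusp2 of 23 immediate early genes, and Hsph1 and Dnajb1 of 7 heat shock genes were lower, while 9.86% of the 4494 genes tested were as far higher and 10.7% as far lower. Dnajb1 was at 769.9 and 378 CPM (ratio 0.491, 0.426 to 0.564) and Hsph1 at 1065 and 600.2 CPM (ratio 0.564, 0.503 to 0.630). Egr1 was at 544 and 1489 CPM (ratio 2.74, 2.46 to 3.05) and Ier3 at 33.04 and 120.3 CPM (ratio 3.64, 2.39 to 5.70). Nr4a2, at 586 and 359.6 CPM (ratio 0.614, 0.529 to 0.711), and Nr4a3, at 601 and 471 CPM (ratio 0.783, 0.683 to 0.896), were furthest over the free RNA, by 10.6 and 8.07 times and by 6.61 and 9.64 times. Both receptors are induced by antigen receptor signals. Fibroblast markers, at 1473 and 5654 CPM, and plasma cell markers, at 11291 and 27997 CPM, were higher in the VApcMinL cells, as Fos and Egr1 were, and their part was not tested. At least 2 times the free level in both libraries were 7 immediate early and 6 heat shock genes, beside 33.4% of all genes tested. The immediate early ratio turned to 0.777 when doublets were left out.

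B cell-like cells (661 and 354 cells) had sums of 8113 and 6925 CPM (ratio 0.854, 0.837 to 0.871) and 9606 and 8617 CPM (ratio 0.897, 0.881 to 0.913). Higher past 1.5-fold were Atf3 and Ier3 and lower were Egr2, Nr4a2, Klf2 and Klf6 of 25 immediate early genes, and no heat shock gene passed, while 7.90% of the 7596 genes tested were as far higher and 3.95% as far lower. Dusp2 was the gene most over the free RNA, at 311 and 278 CPM (ratio 0.895, 0.808 to 0.989) or 6.89 and 12.1 times the empty droplets, and Egr3 was at 169 and 123 CPM (ratio 0.726, 0.626 to 0.841). Nr4a2 was at 52.7 and 26.6 CPM (ratio 0.505, 0.368 to 0.683) and Ier3 at 10.4 and 27.6 CPM (ratio 2.66, 1.74 to 4.08), a difference that turned round without the doublets (ratio 0.889). Dusp2, Egr3 and Klf2 were the immediate early genes past 2 times the free level and Hsp90aa1 and Hsph1 the heat shock genes, beside 31.1% of all genes tested. In plasma cell-like cells (473 and 533 cells) both sums were under the free level, at 1985 and 2057 CPM (ratio 1.04, 1.003 to 1.07) and 1482 and 1746 CPM (ratio 1.18, 1.14 to 1.22), with Atf3, Ier3, Klf4 and Socs3 of 19 immediate early genes and Hsph1 (24.5 and 61.9 CPM, ratio 2.52, 1.98 to 3.23) of 7 heat shock genes higher past 1.5-fold and none lower, while 13.0% of the 4026 genes tested were as far higher and 5.27% as far lower. Ier3 had the largest ratio there, from 4.17 and 12.1 CPM. With the free RNA subtracted the plasma cell-like immediate early ratio was 0.945. The class joins 2 clusters that differed in level and ratio. In cluster 5 (445 and 492 cells) the immediate early sum was 1059 and 1258 CPM (ratio 1.19, 1.13 to 1.24) and the heat shock sum 951 and 845 CPM (ratio 0.889, 0.842 to 0.937). In cluster 22 (28 and 41 cells) they were 8524 and 5254 CPM (ratio 0.616, 0.589 to 0.644) and 5237 and 5354 CPM (ratio 1.02, 0.972 to 1.08). The heat shock ratio of the class thus lay above those of both clusters. No panel gene was at 2 times the free level in plasma cell-like cells, beside 3.97% of all genes tested.

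Epithelial-like cells (48 and 343 cells), the cells in which Villin-Cre acts, had an immediate early sum of 7308 and 7728 CPM (ratio 1.06, 1.04 to 1.07) and a heat shock sum of 5251 and 3686 CPM (ratio 0.702, 0.689 to 0.715). After thinning the immediate early ratio was 0.898. The class joins cluster 12 (36 and 317 cells) and cluster 24 (12 and 26 cells), in which the immediate early ratios lay on opposite sides of 1. In cluster 12 the immediate early sum was 8427 and 7791 CPM (ratio 0.925, 0.908 to 0.941) and in cluster 24 it was 5913 and 7207 CPM (ratio 1.22, 1.18 to 1.25). The heat shock sum was lower in VApcMinL in both, with 4969.5 and 3567 CPM (ratio 0.718, 0.701 to 0.735) and 5601 and 4672 CPM (ratio 0.834, 0.808 to 0.862). Past 1.5-fold, Fosb, Egr2 and Klf4 were higher and Ier3, Nr4a2 and Klf2 lower of 25 immediate early genes, and Hsp90aa1 and Hsph1 were lower of 7 heat shock genes, while 9.55% of the 10301 genes tested were as far higher and 33.7% as far lower. Hsp90aa1 was at 1396 and 689 CPM (ratio 0.494, 0.476 to 0.512) and Hsph1 at 91.6 and 36.8 CPM (ratio 0.402, 0.347 to 0.467). Klf4, a factor of differentiated epithelium, was at 195 and 396 CPM (ratio 2.03, 1.86 to 2.21). The share of genes lower in VApcMinL was high over all genes, and the heat shock median log2 ratio of -0.55 stands beside -0.30 for all genes. As cells were sorted against EpCAM, these are not a sample of the epithelium. At least 2 times the free level in both libraries were 1 immediate early and no heat shock gene, beside 19.8% of all genes tested. In erythroid-like cells (1364 and 364 cells) the sums were 175 and 425 CPM (ratio 2.43, 2.26 to 2.61) and 101 and 236 CPM (ratio 2.34, 2.13 to 2.57), and 14 of 15 immediate early and 6 of 7 heat shock genes, all but Hspa1b, were higher past 1.5-fold, while 79.6% of the 1030 genes tested were as far higher and 3.20% as far lower. The median log2 ratio was 1.27 and 1.17 for the groups and 1.38 for all genes, so the panel moved there as other genes did. With mitochondrial, hemoglobin and immunoglobulin genes and Gm42418 out of the total the ratios were 1.20 and 1.15. Over the 3 erythroid clusters the immediate early ratios were 2.93, 2.23 and 2.07 and the heat shock ratios 1.40, 2.81 and 3.53, all at levels far below the empty droplets. No panel gene reached 2 times the free level there, beside 6.80% of all genes tested. Ier3 had the largest erythroid ratio (5.24) and Jund the smallest, 48.7 and 66.7 CPM (ratio 1.37, 1.16 to 1.61).

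Single members marked single classes more sharply than the sums did. Dusp2 was at 311 and 278 CPM in B cell-like and 159 and 85.0 CPM in T cell-like or innate lymphoid-like cells, 129 and 71.8 CPM in lymphatic endothelial-like cells, 77.5 and 67.9 CPM in myeloid-like cells and 60.5 and 42.1 CPM in blood endothelial-like cells, against 4.16 and 4.83 CPM in fibroblast-like cells. Nr4a3 was at 601 and 471 CPM in T cell-like or innate lymphoid-like cells, 182 and 234 CPM in Lpl Penk fibroblasts and 45.8 and 43.6 CPM in Pi16 fibroblasts. Among the classes given here, Dusp2 thus stood highest in B cell-like cells and Nr4a3 in T cell-like or innate lymphoid-like cells, in either library. Nr4a3 was at least 2 times the free level in both libraries in myeloid-like and smooth muscle-like cells as well, but not in B cell-like cells. Ier3 led in blood endothelial-like cells, and Egr2, a factor of Schwann cell identity, in enteric glial-like cells with 151 and 164 CPM. Fosl1, though at few UMIs, stood at 27.0 and 23.3 CPM in cluster 0 and 8.99 and 37.4 CPM in subepithelial stromal-like cells, against 1.66 and 6.40 CPM in the empty droplets. Inducible HSP70 was uneven even among fibroblasts, with Hspa1a at 553 and 619 CPM in Pi16 fibroblasts and 2914 and 3098 CPM in Grem1 fibroblasts. Hspa8 ran from 15.95 and 49.1 CPM in erythroid-like and 295 and 386 CPM in plasma cell-like cells over 1030.0 and 1388 CPM in lymphatic endothelial-like cells to 4482 and 3282 CPM in T cell-like or innate lymphoid-like cells. Jund was at 993 and 1018 CPM in Adamdec1 fibroblasts, 1895 and 1454 CPM in enteric glial-like cells and 2413 and 1649 CPM in smooth muscle-like cells, the highest of the classes in ApcMin.

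**Figure D4:**
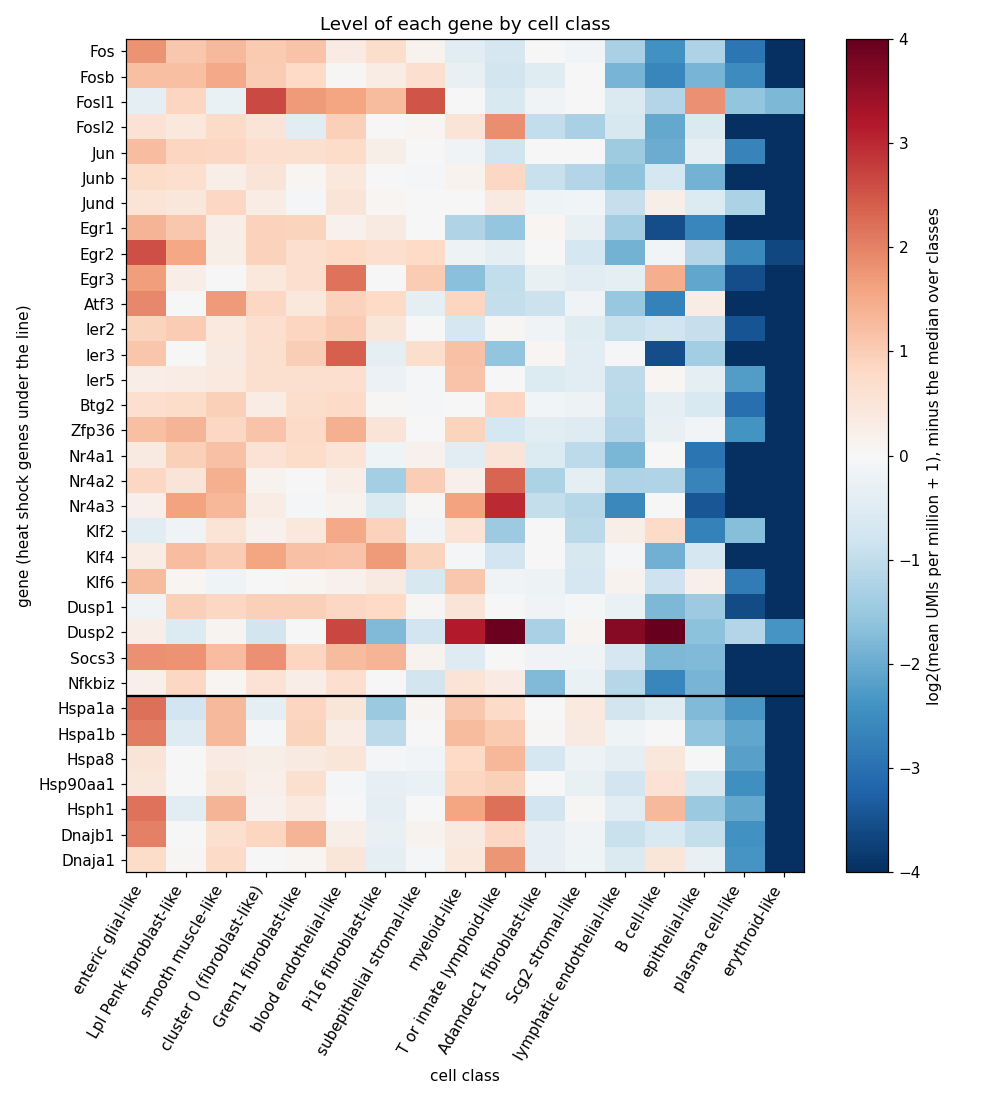
Level of each of the 33 genes (lines) by cell class (columns), as log2 of the mean CPM of both libraries plus 1, minus the gene's median over classes, with the heat shock genes under the black line. Enteric glial-like cells are above the median for most genes and erythroid-like cells far below it. Dusp2 stands out in B cell-like cells (311 and 278 CPM) and Nr4a3 in T cell-like or innate lymphoid-like cells.

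Within a class the response was spread widely over cells. The immediate early sum per 10000 UMIs of a fibroblast-like cell ran from 31.6 at the tenth percentile over a median of 203 to 468 at the ninetieth in ApcMin, and from 26.7 over 214 to 514 in VApcMinL. The heat shock sum ran from 15.0 over 47.0 to 159 and from 12.3 over 57.7 to 208. The libraries overlapped almost completely, and the upper end was higher in VApcMinL. In Adamdec1 fibroblasts the medians were near each other, 64.3 and 79.3, while the upper quartiles were 152 and 262. Lymphatic endothelial-like cells had medians of 24.7 and 43.9 and ninetieth percentiles of 69.0 and 281. In Adamdec1 fibroblasts the difference of the sums thus lay mostly in the upper part of the cells. Lymphatic endothelial-like cells differed lower down as well, with lower quartiles of 15.9 and 25.8, though most at the ninetieth percentile. Subepithelial stromal-like cells differed at the median too, with 51.6 and 204. In smooth muscle the tenth percentiles were 16.5 and 18.8 and the medians 300.4 and 186.

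**Figure D5:**
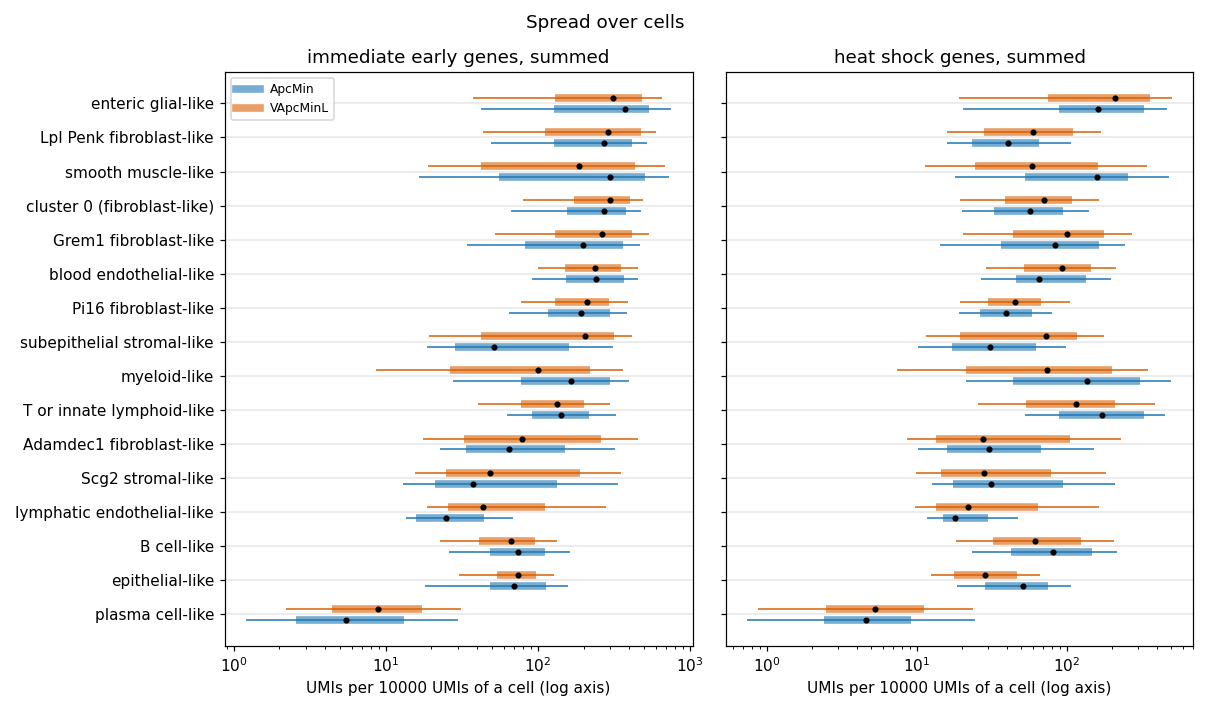
Immediate early (left) and heat shock (right) UMIs per 10000 UMIs of a cell (log axis) by class and library, with a dot at the median over cells, a bar between the quartiles and a line from the tenth to the ninetieth percentile. Cells are not replicates, erythroid-like cells are not drawn, the ranges of the libraries overlap in each class drawn, and Adamdec1 cells differ mostly at their upper percentiles. So do lymphatic endothelial-like cells in the heat shock sum, while in the immediate early sum they differ at each percentile drawn, most at the ninetieth.

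Within the fibroblast-like classes, cells with more immediate early RNA tended to hold more heat shock RNA, and in some other classes this was weaker. With each cell thinned to 3000 UMIs, Spearman's rho between the sums was 0.592 and 0.791 over 3346 and 3679 fibroblast-like cells, a pool of classes with unlike levels. It was 0.798 and 0.804 in Grem1, 0.736 and 0.824 in Adamdec1, 0.451 and 0.696 in Lpl Penk and 0.431 and 0.491 in Pi16 fibroblasts. Enteric glial-like cells had 0.822 and 0.654, and epithelial-like cells 0.564 and 0.347. Blood endothelial-like cells had 0.377 and 0.385, and erythroid-like cells 0.0617 and 0.225. The cells of a class share a library and its free RNA, so these are descriptions. Against depth the immediate early sum of fibroblast-like cells had a rho of 0.0969 and 0.147 and against the mitochondrial share -0.219 and -0.236. Its median went from 239 in ApcMin and 293 in VApcMinL per 10000 UMIs in cells under 2% mitochondrial UMIs to 95.04 and 107 in cells of 4 to 8%. The heat shock median went from 61.2 and 66.2 to 32.3 and 33.2 over the same bins. In cells of 8 to 20% the immediate early medians were 76.5 and 120 and the heat shock medians 28.4 and 42.8. Both medians were thus higher again in VApcMinL, but not in ApcMin. The part of the mitochondrial share in the levels was not tested.

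Other genes of the same pathways, taken from related lists, were read in the same way. In fibroblast-like cells 4 of 32 other early response genes were higher past 1.5-fold (Dusp4, Hbegf, Pim1 and Ier5l) and 1 lower, Ptgs2, the prostaglandin synthase COX-2, at 419 and 278 CPM (ratio 0.664, 0.648 to 0.679), beside 11.7% of all genes higher and 4.12% lower. The count of higher genes was thus near the share over all genes. Of 23 other heat shock factor targets and chaperones none was higher and 1 lower, the collagen chaperone Serpinh1 at 1044 and 634 CPM (ratio 0.607, 0.598 to 0.616). None of 12 endoplasmic reticulum chaperones passed. The higher heat shock level of these cells was thus not shared by the wider chaperone list, whose median log2 ratio was -0.02. In subepithelial stromal-like cells 16 of 31 other early response genes were higher and 1 lower, in lymphatic endothelium 17 and 1 of 27, in Adamdec1 fibroblasts 12 and 2 of 31 and in Grem1 fibroblasts 10 and 0 of 31. Over all genes the shares higher in these classes were 11.9%, 10.8%, 7.75% and 4.38%, and the shares lower 10.7%, 8.52%, 4.55% and 4.85%. Lymphatic endothelial Gadd45b was at 116 and 301 CPM (ratio 2.61, 1.90 to 3.66) and Nfkbia, the inhibitor of NF-κB, at 296 and 645 CPM (ratio 2.18, 1.79 to 2.68). Other heat shock factor targets were lower in 15 and higher in 2 of 23 in epithelial-like cells, lower in 8 and higher in 2 of 18 in T cell-like or innate lymphoid-like cells, and lower in 8 and higher in 1 of 23 in myeloid-like cells. Over all genes 33.7%, 10.7% and 10.8% were as far lower in these classes and 9.55%, 9.86% and 5.06% as far higher. Epithelial-like Hsp90ab1, the constitutive HSP90, was at 2897 and 983 CPM (ratio 0.339, 0.330 to 0.349) and the mitochondrial chaperone Hspd1 at 533 and 227 CPM (ratio 0.426, 0.401 to 0.452). Myeloid Bag3, a co-chaperone of HSP70, was at 326 and 187 CPM (ratio 0.574, 0.515 to 0.638).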

How the data were processed

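The authors made Chromium 3′ v3 libraries and counted UMIs with Cell Ranger against mm10. Their notes name release 2.1.1, while the header of the deposited matrices names 3.1.0. The deposited values are whole UMI counts per gene and barcode, with all barcodes kept and no normalization. No column of another series was present.

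Cells were clustered in Seurat 5.3.0 (R 4.3.3), without 100 listed genes, by canonical correlation integration (2000 variable genes, 30 anchor dimensions) and the Louvain method (20 principal components, 20 neighbours, resolution 0.8). Seurat 3.1.1 and resolution 0.2 were the study's choice. Its trimming of cells by genes and its doublet caller were not applied, so the cell set is not its own. Doublets were kept, and an alternative left out 348 and 345 barcodes by Scrublet score (scanpy 1.11.5), since its own threshold called 0 and 79. Each cluster took its name from markers among its 10 leading genes, or from detected markers where fewer than 2 led.

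UMIs were summed per class and library with pandas 2.3.3, scipy 1.17.1 and numpy 2.4.6 under Python 3.11.15, with exact 95% Poisson and conditional binomial intervals. Shares of cells were read after thinning to 3000 UMIs. Promoters came from RefSeq and positions from GENCODE on GRCm38. Plots used matplotlib 3.10.9.

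The 33 genes, the lists and the markers were chosen with earlier results of these data known. All 33 are given for fibroblast-like cells; in other classes the genes named had the largest or smallest ratio or the highest level over the free RNA, and further members were named after their values were seen. The scripts were tested on simulated counts.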

Additional observations from a re-analysis of the deposited data

Results flagged for a closer look

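The heat shock sum moved in opposite directions between classes under the same comparison of libraries. It was higher in VApcMinL in lymphatic endothelial-like cells (ratio 1.65), subepithelial stromal-like cells (ratio 1.75) and erythroid-like cells (ratio 2.34) and lower in smooth muscle (ratio 0.523). With 1 library per genotype the difference between these classes was not tested. Lymphatic endothelial and smooth muscle cells numbered 38 and 41 in ApcMin, the lymphatic endothelial and erythroid-like sums were near or below the level of the empty droplets, and erythroid-like cells moved as their other genes did. With mitochondrial, hemoglobin and immunoglobulin genes and Gm42418 out of the total the erythroid-like ratio was 1.15. The subepithelial stromal-like ratio lay above those of the clusters it joins, 1.67 in cluster 18 and 1.21 in cluster 20. Over the processing alternatives it ran from 1.21 to 1.78.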

How the results depend on the processing

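No paired analysis was possible because ApcMin and VApcMinL have 1 library apiece, and no replicate could be left out for the same reason. Leaving out cluster 0, weighting the fibroblast-like clusters equally and leaving out barcodes found in both libraries were chosen after seeing the data. In fibroblast-like cells the immediate early ratio of 1.06 became 1.07 with at least 6000 UMIs, 1.05 as a mean over cells and 1.05 after thinning. It was 1.06 without mitochondrial, hemoglobin and immunoglobulin genes and Gm42418 in the total, 1.08 without cluster 0 and 1.21 with clusters weighted equally. The heat shock ratio of 1.24 became 1.26 as a mean over cells, 1.23 with the reduced total, 1.25 with the free RNA subtracted at 5%, 1.27 without cluster 0 and 1.23 with equal weights. At 2-fold 0 immediate early genes passed in place of 1, and without cluster 0 3 did (Fosl1, Egr3 and Ier3). Over the alternatives 10 to 13 classes had a higher immediate early and 11 to 12 a higher heat shock sum in VApcMinL, of 15 to 17 classes. Ratios turned round for Ier3 in B cell-like cells without doublets (0.889), and at resolution 0.2 for Nr4a2 in the fibroblast cluster (1.07) and Egr3 in subepithelial cells (0.523), since that class then holds other clusters. Class sums crossed 1 for 12 values, in T cells or innate lymphoid, blood endothelial, epithelial-like, plasma cell-like and Scg2 stromal-like cells. The erythroid-like immediate early ratio ran from 1.20 to 2.59 and the heat shock ratio from 1.15 to 2.41. In subepithelial stromal-like cells they ran from 1.55 to 1.74 and from 1.21 to 1.78. Depth is counted in UMIs summed over cells, and classes with under 50 cells in a library rest on few cells.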

Other observations

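Endoplasmic reticulum chaperones, which fold secreted proteins and answer to another stress pathway, shared part of the order of the cytosolic heat shock genes over classes, with glia high in both and plasma cell-like cells low in the heat shock genes alone. The sum over 12 of them was 3901 and 4196 CPM in enteric glial-like cells, 4019 and 3360.4 CPM in plasma cell-like cells, 4775 and 3863 CPM in myeloid-like cells, 3552 and 3356 CPM in fibroblast-like cells and 3538 and 2257 CPM in epithelial-like cells, beside 2056 and 2175 CPM in the empty droplets. Between the libraries it had ratios of 1.08, 0.836, 0.809, 0.945 and 0.638 in those classes, and of 1.13 in subepithelial stromal-like cells, where the heat shock sum had 1.75.

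Barcodes over the mitochondrial limit, 75 in ApcMin and 531 in VApcMinL, held less of both programs than the cells kept. Their immediate early level was 5968 and 6060 CPM, against 16714 and 18379 CPM in the cells kept. With mitochondrial genes out of the total the values were 10248 and 11465 against 17213 and 19306 CPM. Their heat shock level was 3541 and 2601 CPM against 6645 and 7742 CPM. With mitochondrial genes out of the total it was 6081 and 4921 against 6843 and 8132 CPM, much closer in ApcMin. Epcam was at 792 and 1194 CPM in these barcodes, against 91.0 and 447 CPM in the cells kept.

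Groups left out of the comparisons, as too small or for mixed markers, gave the following values. A cluster with both B cell and fibroblast markers (49 and 24 cells) had immediate early sums of 22476 and 20757 CPM, mesothelial-like cells (7 and 35 cells) 6999 and 7514 CPM and pancreatic acinar-like cells (12 and 16 cells) 1686 and 7065 CPM.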
